A study of Mus musculus with 12 samples.

Results

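The respiratory chain genes of mouse aorta were taken as every symbol in the expression table that begins with mt-, Nduf, Uqcr, Cox4 to Cox8 or Atp5, or that names an Sdh subunit from a to d, leaving out Cox7a1 and Cox8b. The rule found 71 members among the 3534 rows of the table. Of these, 15 lie on the mitochondrial genome and 56 are nuclear symbols. The study measured mRNA of mouse aorta by RNA sequencing in 4 labelled groups. WT libraries came from wild-type mice on a normal diet, HFD libraries from wild-type mice on a high-fat diet with 60% of its energy as fat, and HAPN libraries carry the same genotype and diet labels as HFD. HSAPN libraries are labelled APPL1 knockdown on the high-fat diet, and feeding lasted 12 weeks. What was given to the HAPN group beyond the diet, how the knockdown was made, and the sex and age of the mice are not stated in the labels. The level of Appl1 itself was not analysed here. Because the values of HFD1 and HFD2 were identical, the pair entered once, as HFD1, so that HFD had 2 distinct libraries (HFD1 and HFD3) and each other group had 3, 11 in all. Nothing in the labels ties the replicates to separate animals, so p-values measure only the spread between these libraries.

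The respiratory chain moves electrons from NADH and succinate to oxygen through complexes I to IV and uses the resulting proton gradient to drive ATP synthase, complex V. A few core subunits of complexes I, III, IV and V are encoded by mitochondrial DNA, whose strands are transcribed as long precursors and cut at tRNA genes, while all other subunits, including every subunit of complex II, are encoded in the nucleus and imported. Arterial smooth muscle has few mitochondria beside heart muscle, and brown fat around the aorta is rich in them.

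The mitochondrial members comprised 7 complex I mRNAs, mt-Cytb of complex III, mt-Co1, mt-Co2 and mt-Co3 of complex IV, mt-Atp6 of complex V, the 2 ribosomal RNAs mt-Rnr1 and mt-Rnr2, and the proline tRNA mt-Tp. The nuclear members comprised 28 complex I subunits, 2 complex I assembly factors (Ndufaf1 and Ndufaf5), the complex II subunits Sdhb and Sdhc, 4 subunits of complex III, 11 of complex IV and 8 of complex V. The processed pseudogene Ndufab1-ps also met the rule. The table is not a full transcriptome: its rows held between 12.0 and 17.6% of each library's reads, and how they were selected is not stated. Respiratory genes outside it are not analysed here. Read totals recovered from the steps between low FPKM values ranged from 15610000 to 17840000 per library. All 71 members passed the filter of at least 1 FPKM in at least 3 libraries that left 1659 genes for testing.

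Some libraries stood apart in the content of other tissues. For the labelled tissue, 9 of 11 contractile smooth muscle markers were in the table, with summed levels of 714 to 2887 FPKM in WT, 261 and 918 in HFD, 300.4 to 555 in HAPN and 320.3 to 529 in HSAPN. None of the 7 endothelial markers was in the table. The 3 heart muscle markers present of 17 (Myl4, Tnnt2 and Tnni3) summed to 48.3, 310 and 245 FPKM in WT1 to WT3, 389 in HFD1 against 7.92 in HFD3, 122, 129 and 7.79 in HAPN1 to HAPN3, and 29.4, 15.6 and 154 in HSAPN1 to HSAPN3. Erythrocyte markers, 8 of 10 in the table, summed to 412, 413 and 3209 FPKM in WT, 2202 and 3844 in HFD, 1310.0 to 3910 in HAPN and 3175 to 4891 in HSAPN. The single airway marker present of 9 ranged from 2.81 FPKM in HAPN3 to 10735 in WT2, and the 4 fibroblast markers present of 7 summed to 142 to 163 FPKM in WT, 115 and 209 in HFD, 101 to 117 in HAPN and 108 to 123 in HSAPN. All 12 adipocyte markers were in the table and summed to 138 to 975 FPKM in WT, 56.3 and 1528 in HFD, 60.3 to 339.6 in HAPN and 83.0 to 171 in HSAPN. The part of these tissues in the differences between groups was not tested. In bulk tissue, fewer cells of a type and less RNA per cell cannot be told apart.

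Several mitochondrial mRNAs have near-identical copies in the nuclear genome, which bears on every value given for them. On chromosome 1 (GRCm38, minus strand, chr1:24611535-24616197) the GENCODE annotation lists 7 pseudogenes in a row that copy mt-Co1, mt-Co2, mt-Atp6, mt-Co3, mt-Nd3, mt-Nd4l and mt-Nd4, and 5 of them have no mismatch over the aligned bases. The first 60 bases of mt-Co3 (chrM:8607-9390, plus strand) and of its copy Gm28437 are shown because they are the same in both, so a short read from either cannot be assigned to one.
mt-Co3: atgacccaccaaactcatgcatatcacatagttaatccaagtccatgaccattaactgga
Gm28437: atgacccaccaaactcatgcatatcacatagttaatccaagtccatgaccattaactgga
The copy of mt-Nd3 (chrM:9459-9806), Gm28438, differs by the single substitution T3C over 345 aligned bases, counted from base 1 of the gene. Bases 1 to 31 of both are shown with the differing base in capitals.
mt-Nd3: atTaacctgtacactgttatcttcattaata
Gm28438: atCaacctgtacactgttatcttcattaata
How the submitters' counting treated reads with more than 1 matching place is not stated in the labels, so the values of these genes are uncertain.

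The level of the mitochondrial mRNAs split along this line. The 5 mRNAs with at least 95% of their length in a nuclear copy (mt-Co2, mt-Co3, mt-Atp6, mt-Nd3 and mt-Nd4l) had means of 9.64 to 115 FPKM over the 11 libraries. The other 7, which include mt-Nd4 with 63.6% and mt-Co1 with 31.3% of their length in a copy, had means of 2147 to 19424 FPKM. No value of the first set, at most 293 FPKM, reached the lowest value of the second, 1306 FPKM. mt-Co1, the catalytic subunit of complex IV, was the most abundant at 14488 to 28407 FPKM, while its partner subunits mt-Co2 and mt-Co3 were listed at 66.4 to 293 and 33.8 to 262 FPKM. The copies of these 5 had levels of the same order as the genes they match: Gm28437 ranged from 29.6 to 135 FPKM, and Gm28661, the copy of mt-Co2, from 34.0 to 532 FPKM, both highest in WT1. The copy of mt-Nd4, Gm28439, lay at 13.0 to 43.0 FPKM, far under mt-Nd4 itself at 2672 to 8493. The copied mRNAs also varied more, with highest-to-lowest ratios of 4.41 to 7.83 across libraries against 1.96 to 3.18 for the other 7.

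**Figure D1:**
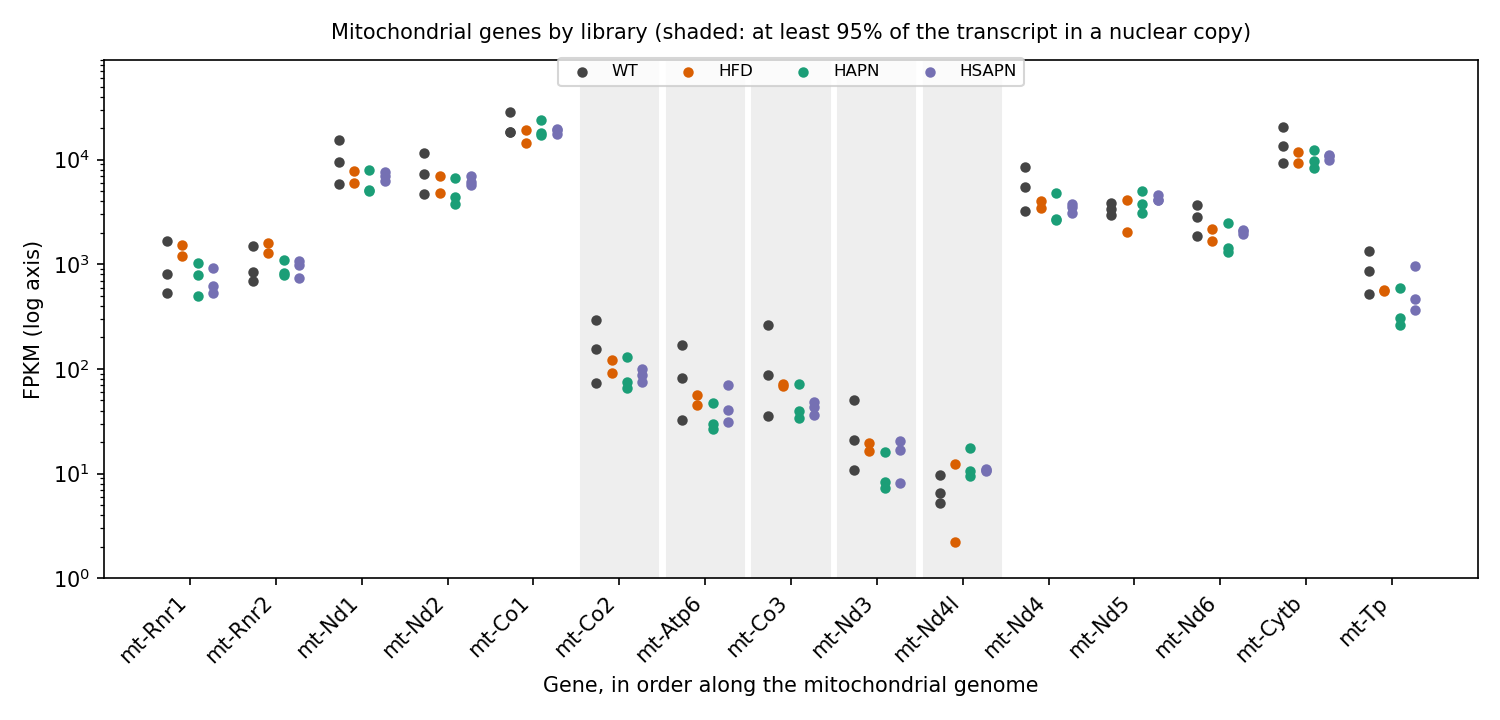
FPKM of the 15 mitochondrial members on a log axis, in order along the mitochondrial genome, 1 point per library and coloured by group. The 5 shaded genes, with at least 95% of their length in a nuclear copy, lie at 2.23 to 293 FPKM, below all values of the 7 other mRNAs.

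Read counts behind the values differed widely. mt-Co1 rested on at least 372692 recovered reads per library and Ndufab1, the nuclear member with the lowest mean (3.10 FPKM), on at least 247. The thinnest members were mt-Nd4l, with 11.0 to 83.6 recovered reads, and mt-Nd3 and Ndufab1-ps, each with 44.8 in their lowest library, so their counting error is the largest.

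The mitochondrial members took 11.9, 7.72 and 6.33% of all reads in WT1, WT2 and WT3, 7.59 and 5.67% in HFD1 and HFD3, 8.58, 5.74 and 6.12% in HAPN1 to HAPN3, and 7.11, 6.50 and 7.44% in HSAPN1 to HSAPN3. The group means were 8.64% ± 2.88 (SD, n = 3) in WT, 6.63% ± 1.36 (SD, n = 2) in HFD, 6.81% ± 1.54 (SD, n = 3) in HAPN and 7.01% ± 0.477 (SD, n = 3) in HSAPN. WT1 was the highest library of the study and the 4 groups overlapped. The nuclear members, leaving out Atp5o for which no length was matched, took 0.510, 0.628 and 0.527% of reads in WT1 to WT3, 0.623 and 0.481% in HFD1 and HFD3, 0.460, 0.431 and 0.417% in HAPN1 to HAPN3, and 0.380, 0.398 and 0.511% in HSAPN1 to HSAPN3. All HAPN libraries lay below all WT and HFD libraries in this share, and HSAPN3 alone among the HSAPN libraries lay within the WT and HFD range. The rows of the whole expression table held 17.6, 17.6 and 14.0% of reads in WT1 to WT3 and 17.2 and 12.6% in HFD1 and HFD3. They held 14.4, 12.5 and 12.0% in HAPN1 to HAPN3 and 12.9, 12.4 and 14.0% in HSAPN1 to HSAPN3. The nuclear share was not set relative to these, so its separation is not shown to be particular to the members. These sums are a description and were not tested.

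**Figure D2:**
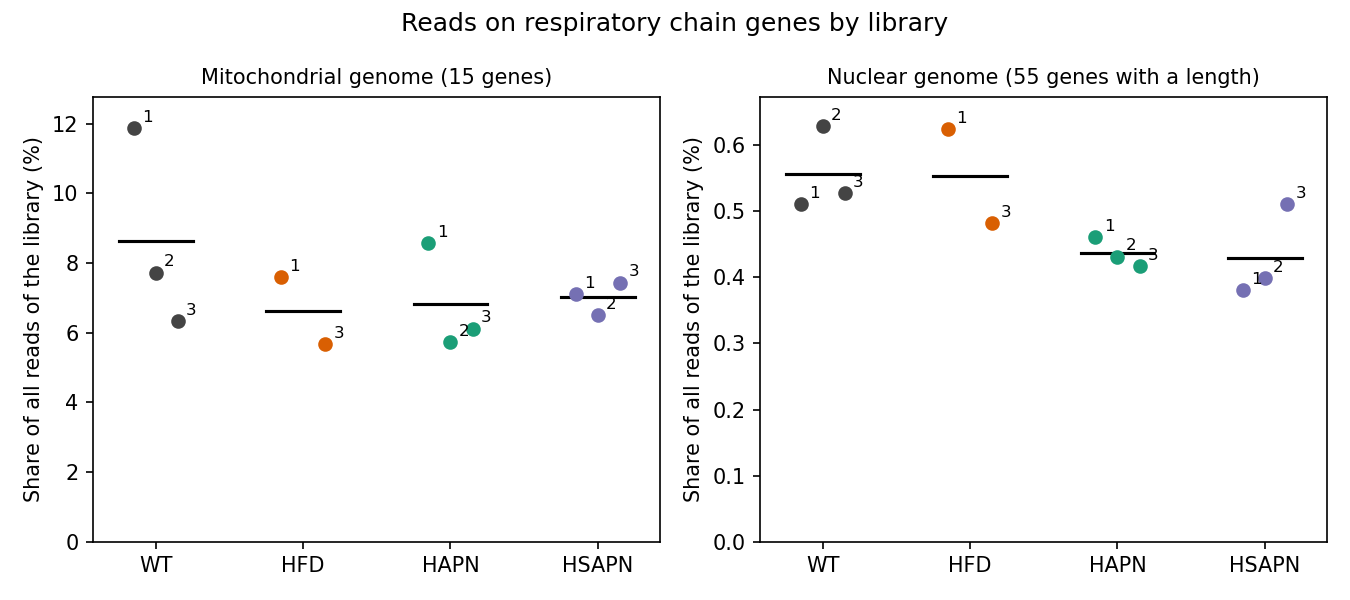
Share of all reads of a library, in percent, that fell on the 15 mitochondrial members (left) and on the nuclear members with a known length (right), 1 point per library marked with its replicate number, with the group mean as a bar. The left panel overlaps between groups, with WT1 at 11.9%, and in the right panel the 3 HAPN libraries, at 0.417 to 0.460%, lie below the WT and HFD libraries. The share held by all rows of the expression table, which also differed between libraries, is not drawn.

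In HFD, HAPN and HSAPN the same library was highest in both shares (HFD1, HAPN1 and HSAPN3), while in WT it was WT1 for the mitochondrial and WT2 for the nuclear share. The ratio of mitochondrial to nuclear reads was 23.2 in WT1 against 12.3 and 12.0 in WT2 and WT3, 12.2 and 11.8 in HFD, 18.6, 13.3 and 14.7 in HAPN, and 18.7, 16.3 and 14.6 in HSAPN. Within WT, 13 of 15 mitochondrial members were highest in WT1, while 44 of 56 nuclear members were highest in WT2. Within HFD, 11 of 15 mitochondrial and 41 of 56 nuclear members were higher in HFD1. Within HAPN, all 15 mitochondrial members were highest in HAPN1, as were 33 of 56 nuclear ones. Within HSAPN, 11 of 15 mitochondrial and 52 of 56 nuclear members were highest in HSAPN3, the HSAPN library with the highest summed heart markers (154 FPKM against 29.4 and 15.6). Heart markers were also highest in HFD1 (389 FPKM against 7.92 in HFD3) and, within WT, in WT2 (310 FPKM). In HAPN they were highest in HAPN2 (129 FPKM against 122 in HAPN1), where 0 of 15 mitochondrial and 9 of 56 nuclear members were highest. WT1 had the lowest heart markers of WT (48.3 FPKM). The part of heart muscle cells in the spread was not tested.

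No respiratory chain member passed the test in any of the 6 comparisons. Differences are given on the log2(FPKM + 1) scale, as the first-named group minus the second, from 1 limma fit of all 4 groups, with p adjusted by Benjamini-Hochberg over the 1659 tested genes and a threshold of 0.05. Of all tested genes, 0% passed in HFD against WT, 0.181% in HAPN against HFD, 0.121% in HSAPN against HAPN, 0% in HSAPN against HFD, 0% in HAPN against WT and 0% in HSAPN against WT. At an unadjusted p under 0.05, members that were lower numbered 0 of 71 in HFD against WT (4.1% of all tested genes), 6 in HAPN against HFD (5.97%), 0 in HSAPN against HAPN (4.22%), 4 in HSAPN against HFD (3.56%), 15 in HAPN against WT (14.4%) and 13 in HSAPN against WT (14.1%). No member was higher at that p in any of them, where 7.29, 2.65, 3.62, 0.482, 7.78 and 7.59% of all tested genes were, in the same order. After median-ratio scaling, nuclear members under that p in either direction went from 14 to 1 of 56 in HAPN against WT. In HSAPN against WT they went from 13 to 1. Against HFD they went from 6 to 0 in HAPN and from 4 to 0 in HSAPN. Over all 1659 tested genes the counts went from 368 to 331, 360 to 396, 143 to 111 and 67 to 48 in that order. Of 15 mitochondrial members, 1 was then under it in HAPN against HFD and 1 in HSAPN against HFD. The comparisons share their control libraries (HFD, WT or HAPN), so they are not independent of each other.

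The comparison of high-fat with normal diet concerns the diet, the only difference between these labels. Nuclear members lay close to WT, with 39 of 56 lower (against 42.4% of all tested genes) and a median difference of -0.03, against 0.07 over all tested genes, and -0.10 with 48 of 56 lower after median-ratio scaling. Without overlap, 2 of 56, Ndufb7 and Ndufaf5, were lower (7.17% of all genes) and 1, Ndufb4, was higher (12.1%). The nuclear median turned to 0.07 without WT2, to 0.06 without HFD3 and to 0.01 with the identical HFD files entered as 2 libraries. In that last setting the median over all tested genes was 0.16 with 35.0% lower. Leaving out single libraries moved the all-gene median between -0.10 and 0.28. By complex the nuclear medians were -0.03 for complex I, -0.07 for II, -0.03 for III, -0.01 for IV and -0.03 for V. The 12 mitochondrial mRNAs and mt-Tp were lower in HFD, by medians of -0.32 in complex I and -0.41 in complex IV, while mt-Rnr1 and mt-Rnr2 were higher by 0.59 (SE 0.48) and 0.58 (SE 0.35). Without WT1, 10 of 15 mitochondrial members were lower, with a median of -0.09 in place of -0.39, and without WT3 the median was -0.76 with 13 of 15 lower. All 15 overlapped between the groups, and the smallest adjusted p among them was 0.519 (limma). Marker levels of other cells also differed in this comparison. Contractile smooth muscle markers were lower in 7 of 8 cases, with a median of -1.08 (-1.16 after scaling), and heart muscle markers in 3 of 3, at -1.21 (-1.30). Erythrocyte markers were higher in 7 of 7 cases, with a median of 1.58 (1.49 after scaling). The part of these cells in the result was not tested.

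The mitochondrial ribosomal RNAs are the structural RNAs of the organelle's own ribosome. mt-Rnr1, the small-subunit rRNA, read 1666, 801 and 534 FPKM in WT, 1193 and 1518 in HFD, 1020.1, 783 and 499.8 in HAPN, and 917, 531 and 614 in HSAPN. Both HFD libraries were above every HAPN and HSAPN library, and WT1 was above both. Of all tested genes, 19.8% were lower without overlap in HAPN against HFD and 14.2% in HSAPN against HFD. mt-Rnr2, the large-subunit rRNA, read 1510.3, 839 and 693 FPKM in WT, 1595 and 1287 in HFD, 1091, 835 and 791 in HAPN, and 1070.2, 734 and 983 in HSAPN, with the same separation of HFD from HAPN and HSAPN. Against HFD, mt-Rnr1 was at -0.87 (SE 0.48) in HAPN and -1.01 (SE 0.48) in HSAPN, and mt-Rnr2 at -0.68 (SE 0.35) and -0.64 (SE 0.35), with adjusted p of 0.542 in HAPN and 0.886 in HSAPN for both (limma). After median-ratio scaling the values against HFD were -0.62 and -0.81 for mt-Rnr1 and -0.42 and -0.45 for mt-Rnr2. Neither rRNA has a nuclear copy in the search used here, and how rRNA was removed from these mRNA libraries is not stated in the labels.

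HAPN against HFD compared 2 groups that share genotype and diet labels. All 56 nuclear members were lower in HAPN, by a median of -0.29, and 30 of 56 did not overlap between groups. Over all tested genes 75.1% were lower, the median was -0.24, and 19.8% were lower without overlap. With median-ratio scaling of the libraries, which moved the all-gene median from -0.24 to -0.04, the nuclear median was -0.05 and 43 of 56 were lower. The nuclear complex medians were -0.28 for I, -0.37 for II, -0.39 for III, -0.32 for IV and -0.29 for V. The difference rested in part on HFD1: without it the nuclear median was -0.17 with 46 of 56 lower, and the all-gene median 0.01. Of the mitochondrial members 12 of 15 were lower, with a median of -0.27, against 8 of 15 and -0.01 after scaling. That median was -0.51 without HAPN1, and -0.09 without HFD1, -0.10 without HAPN2 and -0.09 without HAPN3. Of the adipocyte markers 11 of 11 tested were lower in this comparison, with a median of -1.22 (-0.98 after scaling), as were 4 of 4 fibroblast markers, with a median of -0.65 (-0.41 after scaling), and their part in the result was not tested. Those lower without overlap were mt-Rnr1, mt-Rnr2 and mt-Nd3, and none was higher without overlap (6.51% of all genes). mt-Nd3, a core subunit at the ubiquinone end of complex I, read 16.4 and 19.7 FPKM in HFD against 16.1, 7.26 and 8.24 in HAPN, so its separation from HFD1 was narrow.

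**Figure D3:**
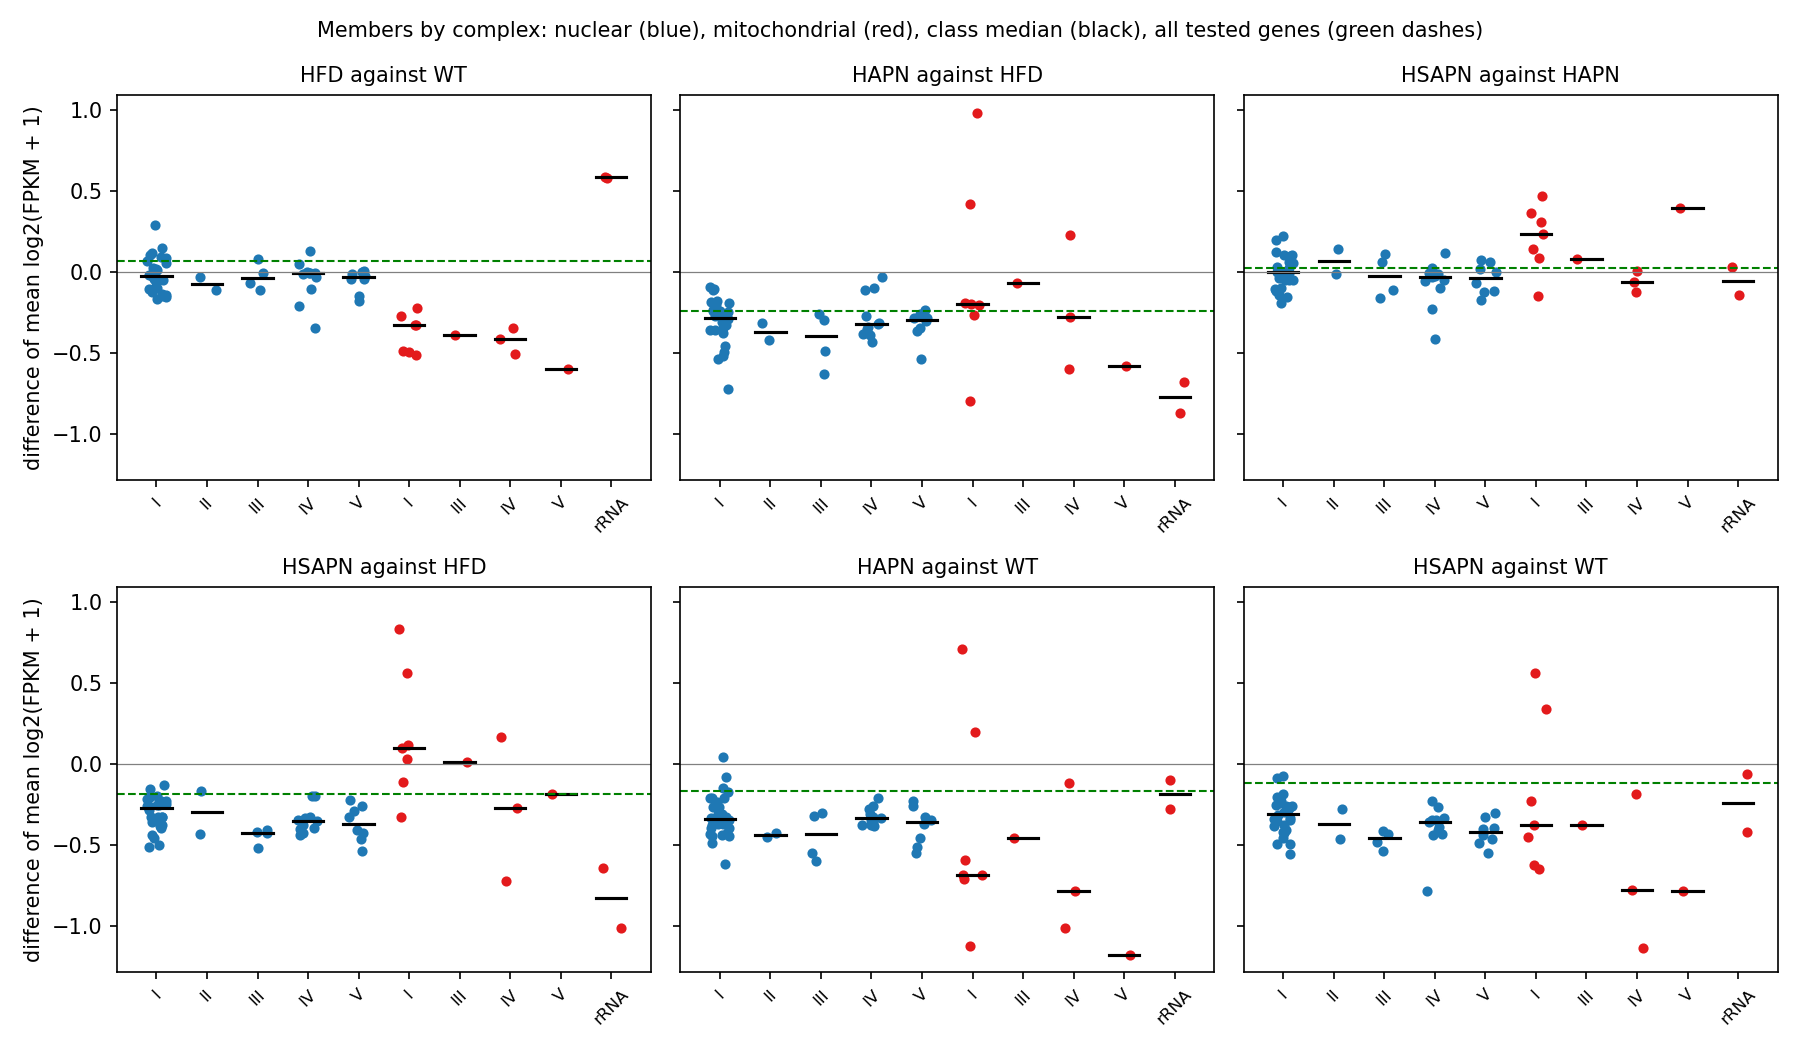
Difference of mean log2(FPKM + 1) for each subunit or rRNA in the 6 comparisons, by complex, with nuclear members in blue, mitochondrial members in red, class medians as black bars and the median of all tested genes as green dashes (the assembly factors, the pseudogene and mt-Tp are not drawn). Most nuclear members lie close together and the nuclear medians lie under the dashes, except that of complex II in HSAPN against HAPN, while mitochondrial members spread from -1.18 to 0.99.

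Ndufb4, an accessory subunit in the membrane arm of complex I (chr16:37647170-37654453, minus strand), had the smallest p among the members in this comparison. It read 36.7, 35.2 and 31.8 FPKM in WT, 41.8 and 43.2 in HFD, 25.2, 25.3 and 25.8 in HAPN, and 27.2, 26.2 and 37.2 in HSAPN. The HFD libraries were above all others and the HAPN libraries below all others, with HSAPN3 between the WT and the HFD libraries. The difference of HAPN from HFD was -0.72 (SE 0.18, adjusted p 0.254, limma), and -0.48 after median-ratio scaling. Ndufb4 shares 390 bases at 100% identity with the processed pseudogene Ndufb4c, so part of its reads may be shared.

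Complex III gave the next smallest p. Uqcrb, the ubiquinone-binding subunit of complex III (chr13:66900617-66905378, minus strand), read 62.0 and 70.2 FPKM in HFD against 49.2, 35.9 and 43.0 in HAPN, and 70.5, 70.3 and 48.9 in WT. HAPN lay below HFD without overlap, by -0.63 (SE 0.23, adjusted p 0.505), while WT3 lay within the HAPN range. The pseudogene Gm2962 copies 62.8% of the Uqcrb transcript at 98.2% identity. Uqcrq, another small subunit of complex III, differed by -0.49 (SE 0.22), Ndufa5 of complex I by -0.54 (SE 0.20), and Ndufab1-ps by -0.58 (SE 0.24), each with an adjusted p of 0.542. Ndufab1-ps matches the acyl carrier subunit gene Ndufab1 at 99.4% identity and was listed at 6.13 to 16.7 FPKM against 2.30 to 3.85 for Ndufab1 itself, so reads of the pair may be shared.

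The comparison of HSAPN with HAPN concerns the APPL1 knockdown label, and nuclear members lay close to each other in the 2 groups. In HSAPN 31 of 56 were lower (against 46.5% of all tested genes), with a median of -0.01 against 0.03 over all genes, and -0.06 with 38 of 56 lower after median-ratio scaling. None was lower without overlap (7.53% of all genes), and 2 of 56, Ndufb4 and Ndufs5, were higher without overlap (9.95% of all genes). Leaving out single libraries moved the nuclear median between -0.14 (without HSAPN3) and 0.08 (without HSAPN1). Of the mitochondrial members 11 of 15 were higher, with a median of 0.09 (0.03 and 9 of 15 after scaling), none without overlap. Without HAPN2, 9 of 15 were lower with a median of -0.02, and without HAPN1 all 15 were higher with a median of 0.34. The largest mitochondrial difference was mt-Tp at 0.59 (SE 0.47, adjusted p 0.999), which rested on 967 FPKM in HSAPN3 against 467 and 362 in HSAPN1 and HSAPN2. Erythrocyte markers were higher in 7 of 7 cases in this comparison, with a median of 0.66 (0.65 after scaling). Heart muscle markers were lower in 3 of 3, at -0.36 (-0.41 after scaling). The part of these cells was not tested.

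Against HFD, the HSAPN libraries had all 56 nuclear members lower, by a median of -0.33 against -0.18 over all tested genes (72.9% lower), and 17 of 56 were lower without overlap (14.2% of all genes). After scaling, the nuclear median was -0.14 with 51 of 56 lower and the all-gene median -0.02. Without HFD1 the nuclear median was -0.18 with 46 of 56 lower, and the all-gene median 0.05. Adipocyte markers were again lower in 11 of 11 cases, with a median of -1.30 (-1.11 after scaling). Fibroblast markers were lower in 4 of 4 cases, at -0.53 (-0.34 with 3 of 4 after scaling). Brown adipocyte markers were lower in 6 of 6, at -0.43 (-0.26 with 5 of 6 after scaling). Erythrocyte markers were higher in 7 of 7, at 0.39 (0.55 after scaling). The part of these cells was not tested. Ndufb4 was at -0.50 (SE 0.18), Uqcrb at -0.51 (SE 0.23), the subunit Ndufa4, counted with complex I by its symbol and known to sit on complex IV, at -0.51 (SE 0.22) and the small ATP synthase subunit Atp5j2 at -0.46 (SE 0.19), all with an adjusted p of 0.886. The mitochondrial members went both ways, with 8 of 15 lower and a median of -0.04 that became 0.15 after scaling and ranged from -0.17 to 0.07 without single libraries. mt-Co3, mt-Rnr1 and mt-Rnr2 were lower without overlap. mt-Nd5, a proton-pumping core subunit of complex I, was higher without overlap at 4154, 4162 and 4557 FPKM in HSAPN against 4099 and 2047 in HFD (5.61% of all genes were higher without overlap), with a difference of 0.57 (SE 0.35, adjusted p 0.886).

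Against the normal diet, nuclear values were lower in both HAPN and HSAPN. HAPN had 55 of 56 lower by a median of -0.34 (62% of all genes lower, median -0.17), with 31 of 56 not overlapping (20.4%), and HSAPN had 56 of 56 lower by -0.35 (57.7%, median -0.12), with 13 of 56 not overlapping (19%). None of the 56 was higher without overlap in HAPN against WT (7.11% of all genes). After median-ratio scaling the nuclear medians were -0.17 (53 of 56 lower) and -0.23 (54 of 56), with all-gene medians of -0.03 and -0.02. Of 4 fibroblast markers 3 were also lower without overlap in each comparison with WT, with medians over the 4 of -1.06 in HAPN and -0.94 in HSAPN (-0.89 and -0.83 after scaling). Of 11 adipocyte markers tested 9 were lower in each, with medians of -0.90 and -1.17 (8 of 11 in each, -0.74 and -1.06, after scaling), and 7 of 7 erythrocyte markers were higher, with medians of 1.18 and 2.03. Contractile smooth muscle markers were lower in 8 of 8 cases in HAPN and in 7 of 8 in HSAPN. Their medians were -1.05 and -1.29 (-0.89 and -1.18 after scaling), and 4 and 6 of them were lower without overlap. The 3 heart muscle markers were lower in both, with medians of -1.44 and -1.80 (-1.28 and -1.69 after scaling). The part of these cells in the lower nuclear values was not tested. By complex, HAPN medians against WT were -0.34 for I, -0.44 for II, -0.43 for III, -0.33 for IV and -0.36 for V, and HSAPN medians were -0.31, -0.37, -0.46, -0.35 and -0.42 in the same order.

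Among nuclear members, Ndufab1-ps had the smallest p in HAPN against WT, at -0.76 (SE 0.21, adjusted p 0.129, limma), with WT at 13.4, 16.7 and 9.55 FPKM and HAPN at 8.03, 7.68 and 6.13. Uqcrq, at 61.1, 71.9 and 53.3 FPKM in WT, was 41.9, 39.7 and 39.5 in HAPN and 38.2, 35.9 and 54.5 in HSAPN, with differences of -0.60 (SE 0.19, adjusted p 0.154) and -0.54 (SE 0.19, adjusted p 0.168). Sdhc, a membrane anchor of succinate dehydrogenase, was 33.6, 42.8 and 32.6 FPKM in WT against 25.3, 26.2 and 28.6 in HAPN, without overlap, at -0.42 (SE 0.15, adjusted p 0.183). Atp5j2 was 39.9, 42.5 and 34.4 FPKM in WT against 24.4, 25.5 and 33.2 in HSAPN, without overlap, at -0.48 (SE 0.17, adjusted p 0.168), and the complex I subunit Ndufb5 was 11.3, 9.95 and 7.38 against 6.40, 5.75 and 7.09, at -0.49 (SE 0.17, adjusted p 0.168). Whether any member passed turned on 1 library. Without WT3, 5 of 71 members passed in HAPN against WT (Uqcrb, Ndufs5, Ndufab1-ps, mt-Co3 and mt-Atp6). In HSAPN against WT 3 of 71 passed (Ndufb5, Ndufab1-ps and mt-Co3). Of all tested genes, 177 and 164 passed in those comparisons, so passing was not particular to the members. Uqcrq, Sdhc and Atp5j2 were not among the members that passed.

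Most mitochondrial members were also lower than in WT, by medians of -0.68 in HAPN and -0.42 in HSAPN with 13 of 15 lower in each (-0.50 and 11 of 15, and -0.30 and 12 of 15, after scaling). mt-Cytb, the cytochrome of complex III, read 20729, 13464 and 9272 FPKM in WT1 to WT3 against 12410.2, 8308 and 9690.0 in HAPN and 10798, 9844 and 11155 in HSAPN. WT1 was above all other libraries, while WT3 lay within the HAPN range and below every HSAPN library. For mt-Nd4 and mt-Nd6 WT1 was also the highest library, at 8493 and 3696 FPKM, against 3225 and 1846 in WT3. The mitochondrial median was -0.27 without WT1 and -0.95 without WT3 in HAPN against WT, and -0.08 and -0.79 in HSAPN against WT. mt-Atp6 had the largest difference among the mRNAs, -1.18 (SE 0.53, adjusted p 0.229) in HAPN against WT, on 169, 82.3 and 32.5 FPKM in WT and 47.0, 30.0 and 26.6 in HAPN, and it is one of the copied genes.

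The 2 mitochondrial exceptions were mt-Nd5 and mt-Nd4l, both core complex I subunits. mt-Nd5 read 3404, 2963 and 3828 FPKM in WT, 4099 and 2047 in HFD, 5074, 3092 and 3735 in HAPN, and 4154, 4162 and 4557 in HSAPN. Every HSAPN library was above every WT library (10.3% of all genes were higher without overlap), by 0.34 (SE 0.31, adjusted p 0.487), and HAPN differed from WT by 0.20 (SE 0.31). Unlike mt-Nd4 and mt-Cytb, which lie on either side of it on the mitochondrial genome, it was not highest in WT1. mt-Nd4l read 6.54, 5.27 and 9.70 FPKM in WT, 12.5 and 2.23 in HFD, 17.4, 10.6 and 9.45 in HAPN, and 10.5, 10.9 and 11.0 in HSAPN, with differences from WT of 0.71 (SE 0.46) in HAPN and 0.56 (SE 0.46) in HSAPN. It rests on few reads and has a full-length copy, Gm10222, at 4.70 to 14.9 FPKM.

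Complex IV has subunit isoforms that are restricted to some tissues. Cox6a2 (chr7:128205435-128206387, minus strand), the subunit VIa isoform of heart and skeletal muscle, read 9.66, 119 and 140 FPKM in WT, 239 and 7.25 in HFD, 67.0, 80.4 and 14.0 in HAPN, and 17.2, 18.3 and 99.4 in HSAPN. It was high in the 6 libraries whose summed heart markers were at least 122 FPKM and low in the other 5. Its isoform partner Cox6a1, found in most tissues, stayed between 207 and 354 FPKM, and Cox8a, the most abundant nuclear member with a mean of 340 FPKM, between 277 and 443. Between the HFD libraries Cox6a2 differed 33.0-fold and in the 6 comparisons the standard error of its log2 difference was at least 1.41. Skeletal muscle markers, 2 of 12 in the table, summed to at most 6.02 FPKM, in HFD1.

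Other nuclear members differed between the HFD libraries by less. Of 56, 41 were higher in HFD1 than in HFD3, with a median ratio of 1.18, and 14 were at least 1.5 times higher. After Cox6a2, the ratio was largest for Atp5b, the catalytic beta subunit of ATP synthase, at 2.44 (218 against 89.2 FPKM), then Cox5a at 1.92, Atp5o at 1.84 and the Rieske protein gene Uqcrfs1 at 1.82. Sdhb, the iron-sulfur subunit of succinate dehydrogenase, was at 1.71. Ndufa2, Ndufa13, Ndufs7 and Cox6a1 lay at the other end, at 0.792 to 0.827. Brown adipocyte markers, 11 of 14 in the table, also summed higher in HFD1 (191 FPKM against 21.1), as did adipocyte markers. Brown adipocyte markers summed to 26.1 to 97.2 FPKM in WT, 19.8 to 53.0 in HAPN and 19.5 to 77.5 in HSAPN. A fit with the mean of the 3 heart markers as a covariate was an alternative added after the data were seen. With it the nuclear median was 0.05 in HFD against WT (20 of 56 lower). All tested genes there had a median of 0.14 with 36.4% lower. The nuclear median was -0.28 in HAPN against HFD (55 of 56), 0.01 in HSAPN against HAPN (25 of 56) and -0.31 in HSAPN against HFD (56 of 56). Against WT it was -0.30 in HAPN (53 of 56) and -0.25 in HSAPN (53 of 56). All-gene values with the covariate are not given here for these other comparisons.

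**Figure D4:**
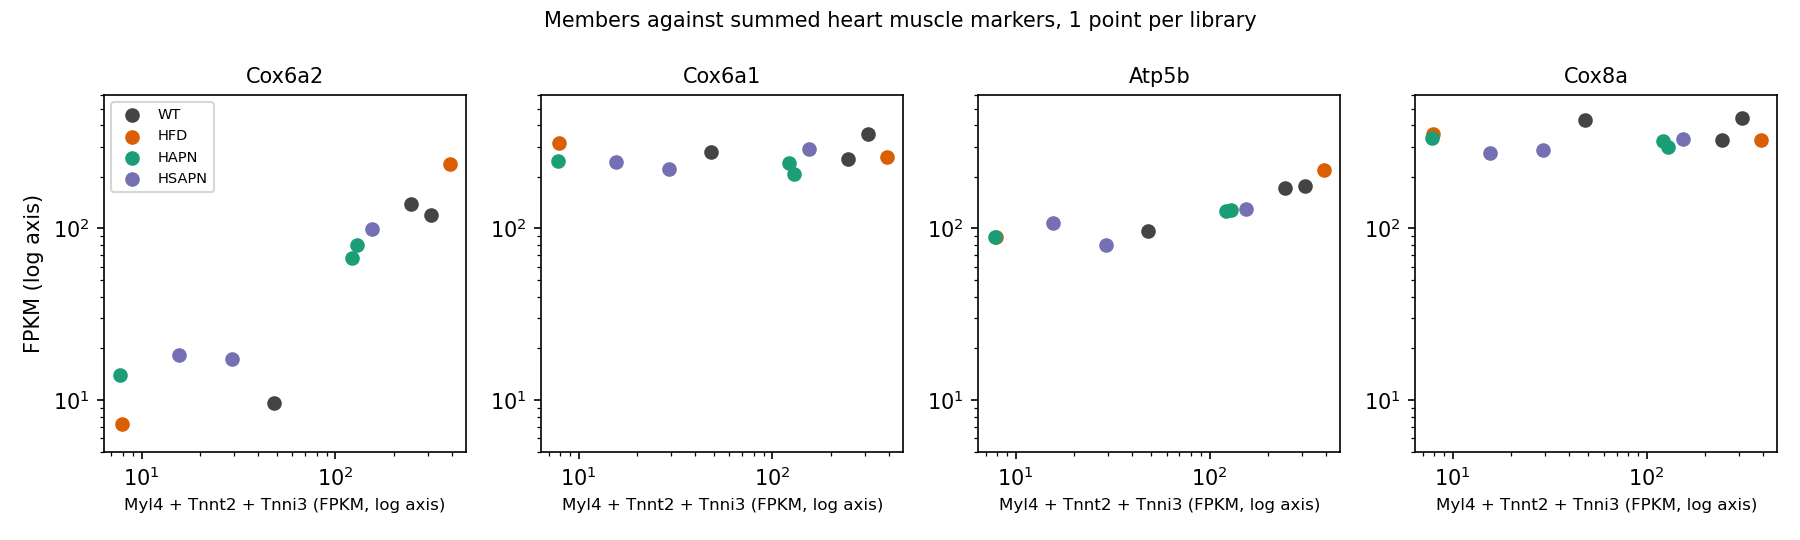
FPKM of Cox6a2, Cox6a1, Atp5b and Cox8a against the summed FPKM of the heart markers Myl4, Tnnt2 and Tnni3, both on log axes, 1 point per library coloured by group. Cox6a2 runs from 7.25 to 239 FPKM and is high where the markers are high, Atp5b from 79.9 to 218, and Cox6a1 and Cox8a stay level.

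The levels of the nuclear members ranged from a mean of 3.10 FPKM for Ndufab1 to 340.1 for Cox8a. The highest means in the other complexes were those of Ndufa2 in complex I (123 FPKM), Sdhb in complex II (36.6), Uqcr11 in complex III (88.5) and Atp5b in complex V (129). The assembly factors Ndufaf1 and Ndufaf5, which build complex I without staying in it, were low at 7.52 and 4.86 FPKM. Between the 3 libraries of a group, the levels of a nuclear member had median highest-to-lowest ratios of 1.35 in WT, 1.20 in HAPN and 1.36 in HSAPN, and the ratio between the 2 HFD libraries had a median of 1.22. Uqcr11 was an example of a member that did not follow the HAPN pattern in every library, at 112, 70.0 and 67.5 FPKM in HAPN1 to HAPN3 against 95.7, 112 and 97.3 in WT.

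Genes outside the rule that serve the same organelle were in the table in part. Their shares and medians are to be read against those of all tested genes, which were 75.1% lower and -0.24 in HAPN against HFD, 62% and -0.17 in HAPN against WT, and 57.7% and -0.12 in HSAPN against WT. In HSAPN against HAPN 888 of 1659 tested genes were higher, with a median of 0.03. In HFD against WT 956 of 1659 were higher, with a median of 0.07. Mitochondrial ribosomal proteins, taken as 15 symbols beginning with Mrpl or Mrps, were lower in 15 of 15 cases in HAPN against HFD (median -0.29, and -0.06 with 12 of 15 lower after median-ratio scaling) and in 15 of 15 in HAPN against WT (-0.32, and -0.15 with 15 of 15 after scaling). In HSAPN against HAPN all 15 were higher (median 0.10, and 0.06 with 11 of 15 after scaling). Mrps27 differed by -0.41 (SE 0.15, adjusted p 0.178) and Mrpl54 by -0.68 (SE 0.24, adjusted p 0.171) in HAPN against WT.

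A list of genes of the tricarboxylic acid cycle and of pyruvate metabolism had 13 of 21 in the table, with Dlat, Pcx, Pdk2 and Pdk4 as the pyruvate genes. These were lower in 13 of 13 cases in HAPN against HFD (median -0.27, and -0.03 with 7 of 13 lower after scaling). In HSAPN against WT they were also lower in 13 of 13 (-0.27, and -0.15 with 11 of 13 after scaling). In HFD against WT 10 of 13 were higher (median 0.03, and -0.04 with 6 of 13 higher after scaling). In HSAPN against WT the fumarate hydratase gene Fh1 differed by -0.47 (SE 0.20, adjusted p 0.226) and the pyruvate carboxylase gene Pcx by -0.54 (SE 0.28, adjusted p 0.280). Electron carriers and assembly factors outside the rule, 13 of 47 in the table, were lower in 13 of 13 cases in HAPN against HFD (median -0.24, and -0.01 with 8 of 13 lower after scaling), while 10 of 13 were higher in HFD against WT (median 0.06, and 0.03 with 8 of 13 after scaling). Among them were the complex III assembly factors Bcs1l at -0.46 (SE 0.21, adjusted p 0.542) and Uqcc2 at -0.43 (SE 0.26, adjusted p 0.546) in HAPN against HFD. Of the carriers for ATP, phosphate and related compounds, 3 were tested. Among them the mitochondrial creatine kinase gene Ckmt1 was at -0.96 (SE 0.34, adjusted p 0.168) in HSAPN against WT and the uncoupling protein gene Ucp3 at 0.82 (SE 0.50, adjusted p 0.519) in HFD against WT. Ucp3 read 5.94 FPKM in HFD1 and 0.825 in HFD3, against 0.474, 0.910 and 1.89 in WT, so its difference rested on HFD1. No gene of these lists passed the test (limma) in any comparison. The list of regulators of mitochondrial transcription and biogenesis had 1 of 30 in the table and none tested.

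Promoters of the nuclear members were searched for motifs of factors that are known to bind respiratory chain genes. The windows ran from 250 bases before to 50 bases after the RefSeq start (GRCm38.p6), and 46 of the 56 members had 1 or more, 49 windows in all. The core of the NRF1 motif, CGCATGCG, searched on both strands like the others, was in 12.2% of the member windows against 1.87% of all 32851 windows. The YY1 motif AAGATGGC was in 14.3% against 2.75%, and the ETS motif CCGGAAG in 24.5% against 8.86%. At least 1 of the 3 motifs was in 44.9% of member windows against 12.6% of all. As an example with a match, the 227 bases upstream of the annotated Cox6a1 gene (chr5:115348982-115349208, minus strand) are printed with the NRF1 core in capitals, and the rest of its window also holds an ETS match. Beside it stand the 165 bases upstream of Ndufb4 (chr16:37654454-37654618, minus strand), whose window holds none of the 3 motifs.
Cox6a1: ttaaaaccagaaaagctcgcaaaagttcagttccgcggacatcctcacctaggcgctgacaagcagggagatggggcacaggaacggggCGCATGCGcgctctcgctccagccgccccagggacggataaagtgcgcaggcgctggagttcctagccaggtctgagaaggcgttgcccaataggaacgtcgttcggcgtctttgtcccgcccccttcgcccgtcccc
Ndufb4: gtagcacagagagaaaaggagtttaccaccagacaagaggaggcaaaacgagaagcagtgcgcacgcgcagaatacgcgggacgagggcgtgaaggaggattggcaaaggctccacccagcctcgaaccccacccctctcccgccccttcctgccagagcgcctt
These letters describe the windows and were not tied to any difference between groups.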

How the data were processed

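The deposited values were FPKM, which the authors made from mRNA libraries of total aortic RNA. Per the submitters' processing notes, the tools named are featureCounts 1.5.0-p3 and DESeq 1.8.3 and the build is GRCm38. The aligner, the annotation, the strand setting and the handling of reads with several matches are not stated in the labels or notes. Symbols listed more than once were dropped (1 symbol). Tests used limma 3.58.1 in R 4.3.3 with a trend on log2(FPKM + 1), genes at 1 FPKM or more in at least 3 of 11 distinct libraries, 1 fit with 4 group means, and Benjamini-Hochberg adjustment. Read totals were recovered with GENCODE M21 exonic lengths: 96.1 to 97.3% of values of up to 20 reads came out whole within 0.1 reads. The NRF1 core was taken after a longer form of the motif had been searched. Copies were searched with BLAST 2.17.0 at 98% identity or more over 100 bases or more. The fit was tested on simulated data. Alternatives were another pseudocount, other filters, 2-group fits, median-ratio scaling, leaving out libraries, a replicate block, identical files entered as 2, and a heart marker covariate. Members, lists and tests were chosen with earlier results of these data known. Genes were named by rule: the smallest p in each direction per comparison (4 nuclear, 2 mitochondrial), the highest mean per complex, tissue-restricted isoforms, and 2 genes per companion list. Genes ranked by the HFD1 to HFD3 ratio, mt-Nd3 and the copies were chosen after their values were seen. The values of 1 nuclear member are not reported here by name.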

Additional observations from a re-analysis of the deposited data

How the results depend on the processing

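The number of members past the threshold was 0 under each alternative and comparison except without WT3. Numbers of tested genes past it moved more. HFD against WT (0 genes) had 2 with no filter and 6 with the identical files entered as 2 libraries. HAPN against HFD (3 genes) had 0 with the filter of 1 FPKM in 6 libraries, 0 in the 2-group fit, 5 with median-ratio scaling, 10 with the identical files as 2 libraries and 5 with the heart marker covariate. HSAPN against HAPN (2 genes) had 0 with no filter and 0 in the 2-group fit. HSAPN against HFD (0 genes) had 2 with no filter, 1 in the 2-group fit and 2 with the identical files as 2 libraries. HAPN against WT (0 genes) had 2 with no filter, 16 with median-ratio scaling, 16 with the identical files as 2 libraries and 1 with the covariate. The cause was not tested. Median-ratio scaling took the nuclear median to -0.049 in HAPN against HFD, -0.14 in HSAPN against HFD and -0.17 in HAPN against WT.
Numbers of genes past the threshold with 1 library left out ran from 0 to 27 in HFD against WT, 0 to 5 in HAPN against HFD, 0 to 3 in HSAPN against HAPN, 0 to 3 in HSAPN against HFD, 0 to 177 in HAPN against WT and 0 to 164 in HSAPN against WT. The 5 in HAPN against HFD and 3 in HSAPN against HFD came without HFD3, which leaves 1 HFD library that is assumed to vary like the other groups, and so does leaving out HFD1. The 27, 177 and 164 came without WT3, as did every member call (5 in HAPN against WT and 3 in HSAPN against WT). Nuclear medians then ran from -0.14 to 0.07, -0.43 to -0.17, -0.14 to 0.08, -0.44 to -0.18, -0.40 to -0.27 and -0.48 to -0.26 in the same order, and mitochondrial medians from -0.76 to -0.09, -0.51 to -0.09, -0.02 to 0.34, -0.17 to 0.07, -0.95 to -0.27 and -0.79 to -0.08. Deviations of same-numbered libraries from their group means gave 4 of 15 correlations over 0.1, against 16 of 30 for differently numbered ones. The identical HFD pair was counted as number 1, and the deviations of the 2 HFD libraries mirror each other. These correlations therefore cannot show whether the numbers pair the samples. A replicate block gave 0 genes in HAPN against HFD and 1 in HAPN against WT. The 2 or 3 libraries a group limit the precision of all values, and nuclear copies limit what the values of 5 mitochondrial mRNAs can show.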
